A study of Mus musculus with 8 samples.

Results

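Genes of skeletal muscle fibers, 46 of the 29968 genes in the table, were followed in RNA from pancreatic tumors. They were chosen by name: the myosins, actin, troponins and other parts of the sarcomere, the calcium-handling and energy genes of the fiber, the ubiquitin ligases Fbxo32 and Trim63, and the myogenic factors Myod1, Myog and Pax7. The tumors grew from KPC FC1245 cells, a mouse pancreatic cancer line, of which 250000 in 50 μL of saline were injected into the pancreas of 12-week-old male mice. 4 hosts were WT (C57BL/6J) and 4 were C3-/-, which lack complement component C3 in every cell, and the study endpoint was day 14. Both groups carried tumors, and no tumor-free tissue was part of the comparison. The implanted cells kept their own C3 gene, and C3 was counted in all 8 tumors, at 3370, 5652, 2998 and 7623 in WT tumors 1 to 4 and at 2338, 2387, 1591 and 1842 in C3-/- tumors 1 to 4. No muscle was dissected for these libraries, so the muscle transcripts described here are those read in the tumor samples.

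A skeletal muscle fiber shortens when myosin of the thick filament pulls on actin of the thin filament, after calcium from the sarcoplasmic reticulum binds troponin. Slow and fast fibers use different genes for the same parts. Myh7 is the slow myosin heavy chain, and Myh2, Myh1 and Myh4 are the fast ones, in order of rising speed. Most limb and trunk muscles of the mouse are fast. In wasting muscle the ubiquitin ligases Fbxo32 (atrogin-1) and Trim63 (MuRF1) rise and mark sarcomere proteins for the proteasome, and Pax7, Myod1 and Myog mark the steps from satellite cell to new fiber.

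Total counts were 13.3 to 23.4 M per tumor. CPM below are counts scaled by library size with TMM, FPKM are the deposited values per length, and log2 fold changes are C3-/- against WT. 3 counts were taken as the floor of a library. In bulk tumor RNA, fewer muscle fibers and less RNA per fiber cannot be told apart. Pancreatic acinar markers (9 genes) summed to 1810 CPM in C3-/- tumor 1 and to between 39.2 and 503 in the other tumors, and C3-/- tumor 1 and WT tumor 3 also held fewer counts of long genes than the rest, as given with the long muscle genes below.

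Upstream sequences of 4 members are shown because the results turn on them: Acta1 and Ckm stand for the amount of fiber RNA, Trim63 for atrophy and Myog for differentiation. Acta1 (ENSMUSG00000031972) lies at chr8:124618508-124621490 on the minus strand, Ckm (ENSMUSG00000030399) at chr7:19138701-19156766, Trim63 (ENSMUSG00000028834) at chr4:134042431-134056940 and Myog (ENSMUSG00000026459) at chr1:134217727-134220286, all 3 on the plus strand, in the coordinates of the deposited table (mm39). Each sequence is the 250 bases before the start of the gene's canonical transcript in GENCODE vM39, read from GRCm39, the same build. Those starts differ from the ends of the table's gene models. Capitals mark E-boxes, CANNTG, the motif that MyoD and myogenin bind, and in Acta1 also a CArG box, the motif of serum response factor.
Acta1, chr8:124621687-124621936, minus strand: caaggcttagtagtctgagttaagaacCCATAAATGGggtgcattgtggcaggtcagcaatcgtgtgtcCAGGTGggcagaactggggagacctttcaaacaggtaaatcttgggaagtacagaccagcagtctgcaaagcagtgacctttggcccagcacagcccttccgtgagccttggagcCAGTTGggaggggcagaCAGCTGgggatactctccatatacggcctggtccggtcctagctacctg
Ckm, chr7:19144583-19144832, plus strand: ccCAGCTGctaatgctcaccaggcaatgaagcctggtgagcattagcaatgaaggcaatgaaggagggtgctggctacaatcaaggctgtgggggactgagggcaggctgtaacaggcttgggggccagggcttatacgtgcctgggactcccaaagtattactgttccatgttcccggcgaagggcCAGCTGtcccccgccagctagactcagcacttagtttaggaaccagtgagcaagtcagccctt
Trim63, chr4:134042143-134042392, plus strand: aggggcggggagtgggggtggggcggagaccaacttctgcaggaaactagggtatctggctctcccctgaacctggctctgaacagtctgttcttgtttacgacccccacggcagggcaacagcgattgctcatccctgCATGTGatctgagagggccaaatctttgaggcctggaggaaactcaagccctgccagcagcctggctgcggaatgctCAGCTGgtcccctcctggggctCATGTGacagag
Myog, chr1:134217457-134217706, plus strand: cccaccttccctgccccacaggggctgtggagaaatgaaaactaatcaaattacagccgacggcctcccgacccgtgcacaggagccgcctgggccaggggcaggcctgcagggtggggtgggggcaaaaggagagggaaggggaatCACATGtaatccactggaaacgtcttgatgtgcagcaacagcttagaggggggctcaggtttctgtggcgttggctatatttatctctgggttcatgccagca

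In these 250 bases Acta1 held 3 E-boxes, each with other central bases, Ckm held the form CAGCTG at 2 places, Trim63 held 3 E-boxes, one of them also CAGCTG, and Myog held 1. Over a window of 300 bases, 250 before the start and 50 from it, an E-box was found in 39 of the 46 members and in 70.6% of 21770 genes. The CArG box was found in 3 members (Acta1, Myl3 and Myom1), against 1.54% of genes. A MEF2 site was found in 6 members, against 2.96%, and a TATA box, TATAAA, in 11 members, against 13.2%. Both strands were searched, and the motifs may overlap each other. These matches describe letters only.

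Muscle RNA was high in 5 tumors and near 0 in 3, and both kinds were found in each genotype. Acta1, the actin of the skeletal muscle thin filament, was counted 12294, 7, 1 and 30612 times in WT tumors 1 to 4 and 22649, 7, 10093 and 27427 times in C3-/- tumors 1 to 4. Ckm, the creatine kinase that buffers ATP in the fiber, was counted 1430, 3, 0 and 4578 times in the WT tumors and 2604, 1, 1324 and 3639 times in the C3-/- tumors. WT tumors 2 and 3 and C3-/- tumor 2 were near 0 for both genes and the other 5 tumors were high, so each genotype spanned the whole range. In the 5 high tumors Acta1 had the highest FPKM of all members, between 411.6 and 962.2.

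All 46 members together made up 0.3546%, 0.01168%, 0.01277% and 0.8311% of the counts in WT tumors 1 to 4. In C3-/- tumors 1 to 4 the share was 0.318%, 0.01099%, 0.3238% and 0.7707%. The genotypes overlapped completely, and the highest and the lowest shares differed by more than their 95% exact binomial intervals, which were 0.8274% to 0.8348% in WT tumor 4 and 0.0105% to 0.01149% in C3-/- tumor 2. These intervals cover counting error only, since reads carried no molecular identifiers. Without Des and Eno3, which other tissues also transcribe, the same 3 tumors stayed lowest, at 0.007734% to 0.008094%.

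**Figure D1:**
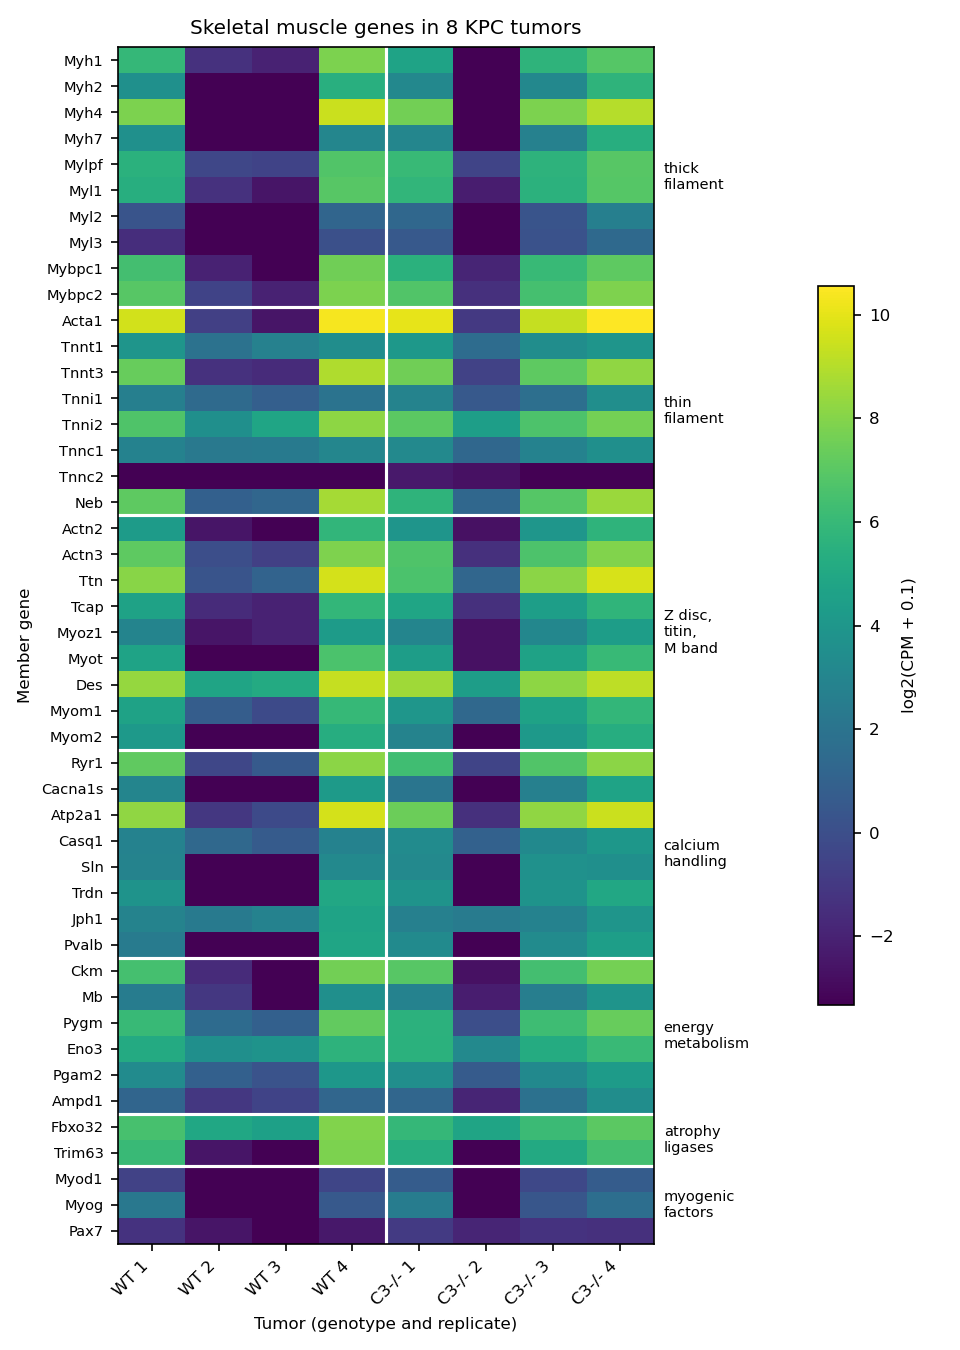
Level of the 46 members (rows, grouped by role) in each of the 8 tumors (columns), as the colour of log2(CPM + 0.1). WT tumors 2 and 3 and C3-/- tumor 2 are dark for most members and the other 5 tumors are bright, while Tnnc2 is dark in all 8.

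For 43 of the 46 members, the 3 lowest CPM values fell in WT tumors 2 and 3 and C3-/- tumor 2. That order held for 418 of the 16610 genes tested, or 2.52%. The 3 members without it were Tnnc2, Pax7 and Jph1, a junctophilin that ties the reticulum to the surface membrane and was counted 115, 68, 93 and 626 times in WT and 141, 94, 112 and 272 times in C3-/- tumors. In these 3 tumors 20 members were at 3 counts or fewer each time, and 12 of them had no count at all: Myh2, Myh4, Myh7, Myl2, Myl3, Myom2, Cacna1s, Sln, Trdn, Pvalb, Myod1 and Myog. A count of 0 allows up to 3 counts of the library.

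A further 9 members had over 20 counts in every one of the 8 tumors. They were the slow troponins Tnnt1, Tnni1 and Tnnc1, the fast troponin Tnni2, the thin-filament ruler Neb, the intermediate filament gene Des, Jph1, the enolase Eno3 and Fbxo32. Des was counted 5317, 366, 480 and 15080 times in WT and 8163, 371, 4578 and 10476 times in C3-/- tumors. Eno3 was counted 568, 157, 185 and 1174 times in WT and 987, 163, 589 and 1244 times in C3-/- tumors. For these genes Acta1 near 0 did not mean a count near 0. Their source in those tumors was not tested. The remaining 17 members lay between these sets.

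Thick filament genes followed the pattern of Acta1. Myh4, the fastest heavy chain (type IIb), was counted 3571, 0, 0 and 16598 times in WT and 4179, 0, 3621 and 9349 times in C3-/- tumors. Myh1 (type IIx) was counted 981, 4, 2 and 5211 times in WT and 562, 0, 828 and 2188 times in C3-/- tumors, and Myh2 (type IIa) 199, 0, 0 and 999 times and 188, 0, 140 and 962 times. Slow Myh7 was counted 200, 0, 0 and 190 times in WT and 176, 0, 106 and 754 times in C3-/- tumors. The 4 heavy chains were thus read in the same 5 tumors, and each had at most 4 counts in the other 3.

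Per length, Myh4 made up 73.3% to 83.7% of the 4 heavy chains in the 5 tumors. Its share was 74.3% and 73.7% in WT tumors 1 and 4 and 83.7%, 78.8% and 73.3% in C3-/- tumors 1, 3 and 4. Myh1 came next with 19.3% and 21.9% in WT and 10.7%, 17.1% and 16.2% in C3-/- tumors. Myh2 (2.57% to 6.36%) and Myh7 (0.589% to 4.13%) were the least in all 5. The muscle RNA in these tumors was therefore mostly of the fast IIb and IIx chains in both genotypes. Between 19.1% and 24.1% of 50-base windows of a heavy chain's transcript also occur in another heavy chain, with Myh3, Myh6, Myh8 and Myh13 searched beside the 4. Reads could thus be shared between heavy chains, and sharing among the 4 alone was not computed.

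The light chains gave the same picture. Fast Mylpf, the regulatory light chain, was counted 736, 9, 8 and 2570 times in WT and 1410, 11, 796 and 2234 times in C3-/- tumors. Slow Myl2 was counted 18, 0, 0 and 52 times in WT and 50, 0, 18 and 113 times in C3-/- tumors. The essential light chains were Myl1 in fast fibers, with 666, 4, 1 and 2922 counts in WT and 1188, 2, 776 and 2188 in C3-/- tumors, and Myl3 in slow ones, with 4, 0, 0 and 22 counts in WT and 29, 0, 16 and 48 in C3-/- tumors. In the 5 tumors with muscle RNA the slow pair held 1.54% and 1.33% of the light chain counts in WT and 2.95%, 2.12% and 3.51% in C3-/- tumors. The 2 WT shares were the lowest, but the intervals of WT tumor 1 (0.971% to 2.33%) and C3-/- tumor 3 (1.47% to 2.95%) overlapped.

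Troponin T, which holds the troponin complex on tropomyosin, differed in isoform between tumors. Fast Tnnt3 was counted 2604, 4, 3 and 11128 times in WT and 3942, 10, 2175 and 5503 times in C3-/- tumors. Slow Tnnt1 was counted 237, 49, 88 and 262 times in WT and 361, 52, 177 and 273 times in C3-/- tumors. The slow gene held 2.3% to 8.39% of the counts of the pair in the 5 tumors, but 92.5%, 96.7% and 83.9% in WT tumors 2 and 3 and C3-/- tumor 2, on only 53, 91 and 62 counts. So Tnnt1 kept part of its level where Tnnt3 was near 0.

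Troponin I, the inhibitory subunit, did not swap in that way. Fast Tnni2 was counted 1691, 160, 377 and 6862 times in WT and 2851, 388, 1622 and 3613 times in C3-/- tumors. Slow Tnni1 was counted 101, 35, 23 and 89 times in WT and 156, 24, 52 and 207 times in C3-/- tumors. Tnni2 was the larger part in all 8 tumors, with Tnni1 at 1.28% of the counts of the pair in WT tumor 4 and 17.9% in WT tumor 2 as the extremes. Per length, which scales for the longer gene model of Tnni1, the same shares were 0.536% and 8.34%.

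Troponin C binds calcium, and here the fast gene Tnnc2 was at the floor of every library. It had 0, 0, 0 and 0 counts in WT and 2, 1, 0 and 0 in C3-/- tumors, while slow Tnnc1 had 111, 64, 69 and 193 in WT and 194, 42, 111 and 222 in C3-/- tumors. Of the 897 exonic bases of Tnnc2 in GENCODE vM39, 616 (68.7%) also lie in exons of Ube2c, a ubiquitin-conjugating enzyme gene of dividing cells on the opposite strand that had 1049 to 2675 counts. The strand setting of the counting is not given in the sources used here, and the part of the overlap in this count was not tested. Pgam2 shares all 989 of its exonic bases with Dbnl in the same annotation, and had 151 to 373 counts in the 5 tumors with muscle RNA. No fiber type was read from troponin C for that reason. The entry of Aldoa read here, the muscle aldolase and no member, was chosen after its values were seen. It had only 6 to 20 counts per tumor. Of its exonic bases 67.2% are shared with other gene entries, among them another entry named Aldoa, whose counts are not given here. Tnnc1 lies over a gene on the opposite strand, Nisch, which had 8568 to 19103 counts. In GENCODE vM39, however, 0 of the 1104 exonic bases of Tnnc1 lie in exons of another gene. In the gene models of the deposited table, 23 members overlap another gene and 8 of them a protein-coding one. These counts leave out, among others, Pgam2, Mylpf and Actn3, whose overlaps come from GENCODE vM39 alone. In that annotation Mylpf shared 29.4%, Actn3 26.8%, Ckm 26.0% and Myh7 24.6% of its exonic bases.

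The myosin-binding protein C genes brace the thick filament. Slow Mybpc1 was counted 1340, 2, 0 and 4305 times in WT and 992, 3, 1045 and 2502 times in C3-/- tumors, and fast Mybpc2 1949, 8, 2 and 5226 times and 2315, 5, 1399 and 4334 times. Mybpc1, named for slow fibers but also made by fast ones, held 40.7% and 45.2% of the counts of the pair in WT and 30.0%, 42.8% and 36.6% in C3-/- tumors. This was the one pair in which the slow gene came near the fast one in all 5 tumors.

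**Figure D2:**
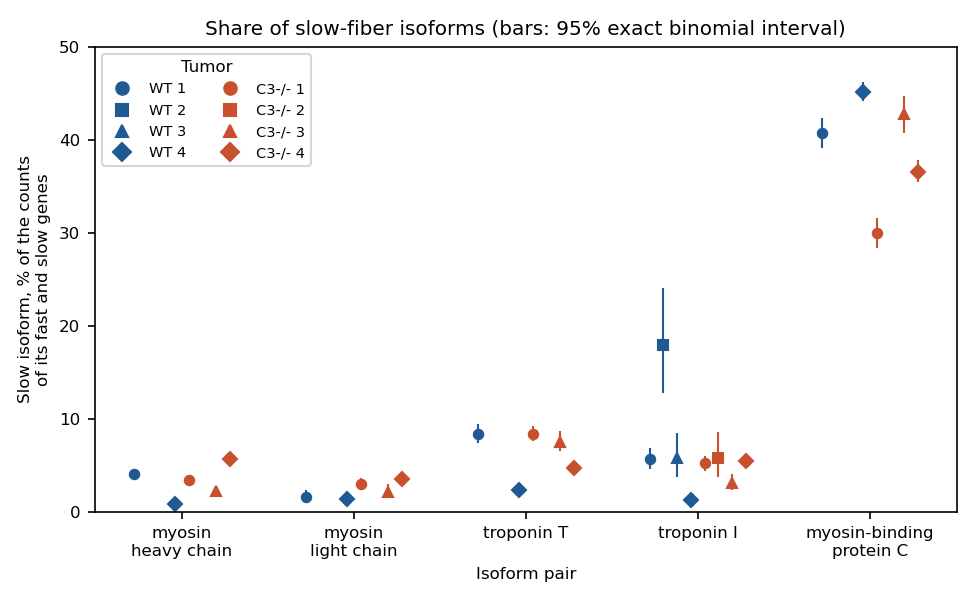
Share of slow-fiber isoforms (vertical axis, percent of the counts of the slow and fast genes of a pair) in tumors with at least 100 counts of the pair, with bars for the 95% exact binomial interval. Heavy chains, light chains and troponin T lie under 10%, troponin I reaches 17.9% in WT tumor 2 (8.34% per length), and myosin-binding protein C lies between 30.0% and 45.2%.

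In the heavy chain, light chain, troponin T and troponin I pairs, WT tumor 4 had the lowest slow share of any tumor plotted. Its Myh7 share was 0.826% of the counts (95% interval 0.713% to 0.952%), and the other tumors had 4.04% in WT tumor 1 and 3.45%, 2.26% and 5.69% in C3-/- tumors 1, 3 and 4. In C3-/- tumor 4, with the highest Myh7 share, the interval was 5.3% to 6.1%. The Myh7 share therefore differed between tumors beyond counting error, and the C3-/- values lay on both sides of WT tumor 1.

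At the Z disc, where thin filaments of adjoining sarcomeres meet, Actn3, the alpha-actinin of fast fibers, was counted 2213, 12, 7 and 5482 times in WT and 2306, 5, 1601 and 4459 times in C3-/- tumors. Actn2, the alpha-actinin of all fibers, was counted 314, 1, 0 and 1336 times in WT and 316, 1, 249 and 944 times in C3-/- tumors. Titin (Ttn), the spring that spans from Z disc to M band, was counted 4312, 15, 27 and 19173 times in WT and 2107, 41, 4509 and 15280 times in C3-/- tumors. These genes were high in the same tumors as Acta1, though Ttn was lower in C3-/- tumor 1 than in C3-/- tumor 3 while Acta1 was higher. Tcap, Myoz1, Myot, Myom1 and Myom2, further parts of the Z disc and M band, had 121 to 2287 counts in the 5 tumors with muscle RNA and at most 45 in the other 3.

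Calcium handling genes were led by Atp2a1 (SERCA1), the pump of fast fibers, with 4944, 5, 10 and 19018 counts in WT and 3756, 5, 4878 and 12570 in C3-/- tumors. Ryr1, the release channel, had 2300, 9, 19 and 6697 counts in WT and 1681, 11, 1751 and 5228 in C3-/- tumors. Casq1, which stores calcium in the reticulum, had 111, 33, 20 and 166 counts in WT and 222, 33, 151 and 292 in C3-/- tumors. Unlike Atp2a1, Casq1 kept 20 to 33 counts in the 3 tumors with Acta1 near 0. The voltage sensor Cacna1s, the pump inhibitor Sln, Trdn of the release complex and the calcium buffer Pvalb had no count in those 3 tumors and 86 to 754 in the other 5.

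Among energy genes, the glycogen phosphorylase Pygm had 1056, 37, 24 and 3483 counts in WT and 1045, 16, 1187 and 2895 in C3-/- tumors. Mb, which stores oxygen, had 88, 5, 0 and 283 counts in WT and 150, 2, 97 and 262 in C3-/- tumors. The AMP deaminase Ampd1 had 36, 5, 8 and 54 counts in WT and 48, 3, 55 and 200 in C3-/- tumors, and the glycolytic Pgam2 165, 24, 14 and 373 counts in WT and 243, 26, 151 and 361 in C3-/- tumors. All 4 were lowest in the same 3 tumors, and Ampd1 was highest in C3-/- tumor 4.

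The atrophy ligases parted from each other in the tumors without Acta1. Trim63 was counted 1081, 1, 0 and 5214 times in WT and 849, 0, 551 and 1559 times in C3-/- tumors. Fbxo32 was counted 1444, 412, 310 and 5756 times in WT and 1280, 497, 1118 and 2389 times in C3-/- tumors. Where Acta1 had 7 counts or fewer, Trim63 had 0 or 1, while Fbxo32 had at least 310.

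Myogenic factors were low throughout. Myog, myogenin, which drives fusion into fibers, was counted 75, 0, 0 and 32 times in WT and 119, 0, 19 and 58 times in C3-/- tumors. Myod1, the factor of committed myoblasts, was counted 9, 0, 0 and 15 times in WT and 33, 0, 11 and 28 times in C3-/- tumors. Pax7, which marks satellite cells, had 5, 1, 0 and 2 counts in WT and 9, 3, 5 and 5 in C3-/- tumors, too few for the test. Myod1 and Myog were above the floor only in the 5 tumors with fiber RNA.

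The genotype comparison asks whether tumors of hosts without C3 held other levels of these genes. No member was called. Of the 46 members 44 passed the filter on low counts, all but Tnnc2 and Pax7, and 0 of them had an adjusted p below 0.05 in edgeR's quasi-likelihood test, as was true of all 16610 genes tested (0.0% called). None had an unadjusted p below 0.05, against 5.11% of all genes (3.03% higher and 2.07% lower in C3-/-), and DESeq2 called 0 members, against 0.0848% of its genes. For no member were the 4 tumors of one genotype all above the 4 of the other, against 3.73% of genes. For 43 members the tumors lowest in CPM came from both genotypes, so such a separation could not arise, and nothing is read from its absence.

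Fold changes lay mostly above 0, within wide errors. In C3-/- tumors 36 of the 44 were higher and 8 lower, against 50.0% of all genes higher, and the median was 0.33 on the log2 scale, against 0 for all genes. The members rise and fall together over tumors, so the 36 are not separate observations. Their median SE was 1.42, against 0.22 for all genes. The median was -0.06 without WT tumor 2 or without WT tumor 3 and -0.35 without C3-/- tumor 4, and it was 1.54 without WT tumor 4, so single tumors set its direction.

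Mean Acta1 was 516.9 ± 635.7 CPM (SD, n = 4) over WT and 799.1 ± 638.6 CPM over C3-/- tumors, which gave 0.63 on the log2 scale with an SE of 1.91 (adjusted p = 0.999 by edgeR). Without WT tumor 2 or without WT tumor 3 it was 0.21, without WT tumor 4 1.65, without C3-/- tumor 2 1.04 and without C3-/- tumor 4 0.13. The exact two-sided permutation test over the tumors gave p = 0.514, where 0.0286 is the smallest that 4 against 4 tumors can give. Ckm differed by 0.50 (SE 1.62), Des by 0.29 (SE 1.02), Myog by 0.71 (SE 1.28) and Myod1 by 1.51 (SE 1.06), none past the spread between tumors. Directions turned without single tumors: without C3-/- tumor 4 Ckm was at -0.06 and Des at -0.17, without WT tumors 2 and 3 in turn Des was at -0.09 and -0.08, and without C3-/- tumor 1 Myog was at -0.07. Without WT tumor 4 Ckm was at 1.76 and Des at 1.26, and without WT tumor 1 Myog was at 2.27. Trim63 was at 72.29 ± 104.6 CPM in WT and 39.93 ± 35.0 in C3-/- tumors (SD, n = 4), or -0.86 on the log2 scale with an SE of 1.64, and Fbxo32 was at 97.28 ± 102.8 and 72.21 ± 42.96 CPM, or -0.43 with an SE of 0.69. Without WT tumor 4 both turned upward, to 0.82 for Trim63 and 0.58 for Fbxo32, and without C3-/- tumor 4 they were at -1.55 and -0.89. With the replicate number as a block Trim63 was at 0.30. The exact permutation test gave p = 0.943 for Trim63 and 1.0 for Fbxo32.

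The smallest unadjusted p of a member was 0.118, for Ampd1 (log2 fold change 1.57, SE 0.92, adjusted p = 0.985 by edgeR). Casq1 followed with 1.06 (SE 0.62) and slow Myl3 with 1.87 (SE 1.12), adjusted p = 0.985 and 0.990 by edgeR. Without C3-/- tumor 4 the log2 fold changes were 0.47 for Ampd1, 0.68 for Casq1 and 1.23 for Myl3, and without WT tumor 4 that of Myl3 was 3.67. No difference in fiber RNA between genotypes was detected.

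**Figure D3:**
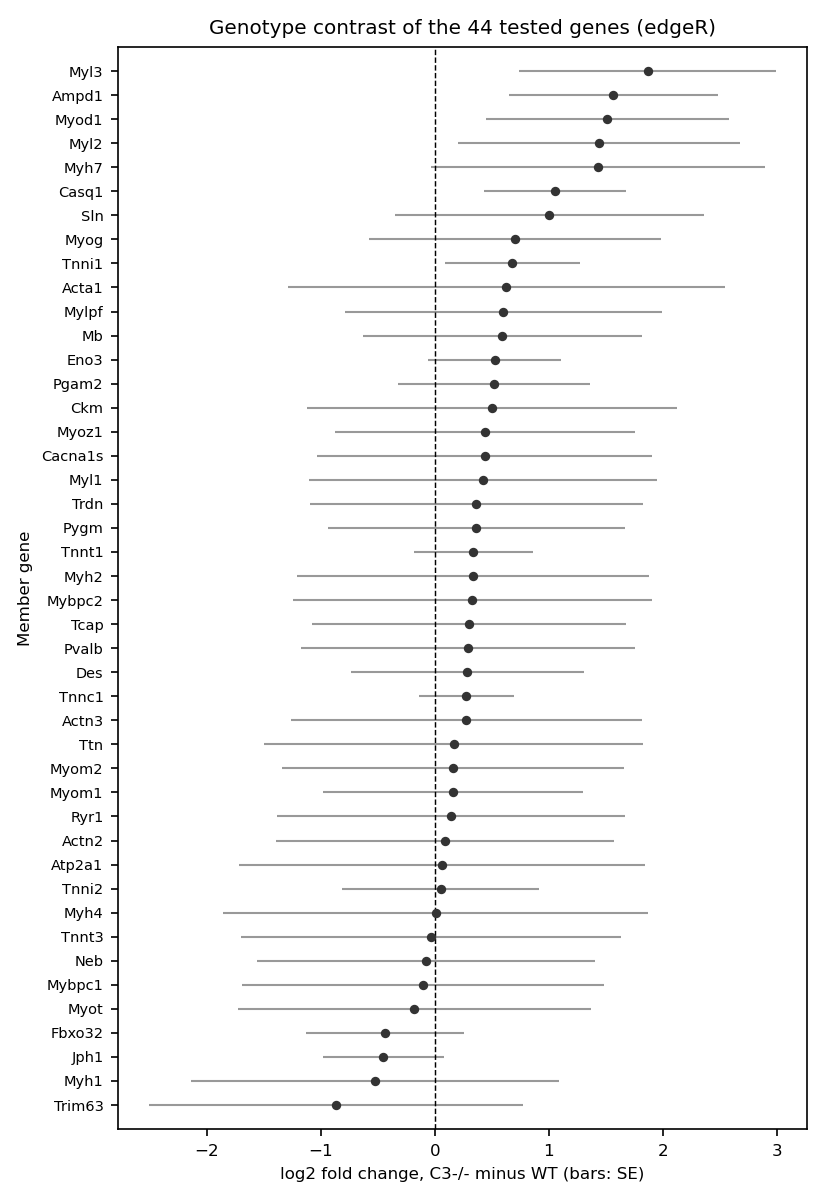
Log2 fold change (C3-/- minus WT, horizontal axis) of the 44 members tested, ordered by size, with bars of 1 SE from edgeR. Points run from -0.86 for Trim63 to 1.87 for Myl3, and most bars cross 0.

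Acta1 was then compared with each gene over all 8 tumors, as the SD of the log2 ratio of the gene to Acta1 (prior count 2). A gene that moves with Acta1 in every tumor has an SD near 0, and a gene that is level over tumors has one near the SD of Acta1 itself, 5.89. The tumors fall into a near-zero and a high set, so no correlation is given. The median SD was 2.61 over 43 members and 5.9 over all genes. Closest were Myh4 (0.66), Ckm (1.01), Tnnt3 (1.32), Atp2a1 (1.35) and Mybpc1 (1.39). With a prior count of 0.5 the closest were Ckm (0.707), Trim63 (1.018), Mybpc1 (1.125), Myh4 (1.202) and Myot (1.297), so the order among the closest rests on how counts near 0 are treated. Farthest were Jph1 (5.46), Tnnc1 (5.33), Tnni1 (5.07), Tnnt1 (5.06) and Fbxo32 (4.89), which were among the 9 members with over 20 counts in every tumor, and these 5 were farthest under both settings.

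Among all genes, 7 of the 10 nearest to Acta1 and 25 of the 50 nearest were members. Near genes outside the 46 were Eef1a2 (1.38), the elongation factor of muscle and neurons, and the sarcomere genes Igfn1 (1.49), Lmod2 (1.73) and Xirp2 (1.73), followed by Mylk2 (1.93), Nrap (2.10), Xirp1 (2.16), Myo18b (2.18) and Art1 (2.19). Eef1a2 was counted 687, 1, 0 and 2321 times in WT and 1118, 0, 679 and 1407 times in C3-/- tumors.

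To set the amount of fiber RNA aside, members were given as counts per 1000 Acta1 counts in the tumors with at least 100 Acta1 counts, which left 2 WT and 3 C3-/- tumors. Trim63 stood at 87.9 and 170 in WT tumors 1 and 4 and at 37.5, 54.6 and 56.8 in C3-/- tumors 1, 3 and 4. Fbxo32 stood at 117 and 188 in WT and at 56.5, 111 and 87.1 in C3-/- tumors. Both ligases were higher per Acta1 in the 2 WT tumors, Fbxo32 by a narrow margin between WT tumor 1 and C3-/- tumor 3. This is a description of 5 tumors and was not tested.

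The fast alpha-actinin Actn3 (180 and 179 in WT, 102, 159 and 163 in C3-/-), Mybpc1 (109 and 141, against 43.8, 104 and 91.2) and Mybpc2 (159 and 171, against 102, 139 and 158) were also higher per Acta1 in both WT tumors, Mybpc2 with almost no gap between WT tumor 1 and C3-/- tumor 4. Such members were 5 of the 45 compared (1.94% of all genes). The slow light chains Myl2 and Myl3, Casq1 and Myod1 were higher in all 3 C3-/- tumors, which made 4 of 45 (1.96% of genes). Most genes of the table do not follow Acta1, so these percentages are no measure for the members, and nothing is read from either count. Myl3 stood at 0.325 and 0.719 in WT and 1.28, 1.59 and 1.75 in C3-/- tumors, on 4 to 48 counts. Ckm, in contrast, held nearly the same ratio to Acta1 in all 5 tumors (116, 150, 115, 131 and 133).

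The choice of denominator mattered. Per 1000 Ckm counts, Trim63 was at 756 and 1140 in WT and 326, 416 and 428 in C3-/- tumors, and per 1000 Myh4 counts at 303 and 314 against 203, 152 and 167. Per 1000 Atp2a1 counts the genotypes overlapped, at 219 and 274 against 226, 113 and 124. Fbxo32 stayed higher in both WT tumors per Ckm and per Myh4, and per 1000 Atp2a1 counts it overlapped, at 292 and 303 against 341, 229 and 190. Actn3 and Mybpc2 overlapped with each of these 3 denominators, and Mybpc1 with Myh4 and Atp2a1. Of the members higher in all 3 C3-/- tumors per Acta1, Myl3, Casq1 and Myod1 stayed so with each denominator. Myl2 overlapped per Myh4. Higher in both WT tumors were 7 members per Ckm, 3 per Myh4 and 1 per Atp2a1. Higher in all 3 C3-/- tumors were 4, 9 and 11. Shares over all genes were not computed for these denominators, and nothing is read from these counts. These denominators were added after the data were seen.

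**Figure D4:**
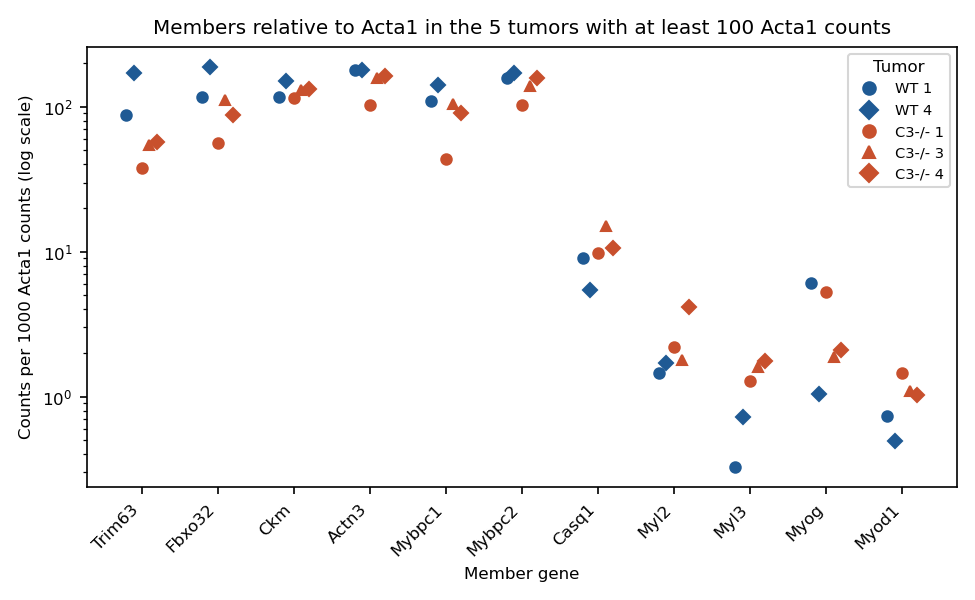
Counts per 1000 Acta1 counts (vertical log axis) of 11 members in WT tumors 1 and 4 (blue) and C3-/- tumors 1, 3 and 4 (orange). Trim63 lies at 87.9 and 170 in WT and at 37.5 to 56.8 in C3-/- tumors, while Ckm lies between 115 and 150 in all 5.

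Myog followed the single tumor and not the genotype. Per 1000 Acta1 counts it was at 6.1 in WT tumor 1 and 5.25 in C3-/- tumor 1, and at 1.05, 1.88 and 2.11 in WT tumor 4 and C3-/- tumors 3 and 4. Chrng, the acetylcholine receptor subunit of immature fibers, chosen after its values were seen, had the same order of high and low, with 1.79 and 2.47 in WT tumor 1 and C3-/- tumor 1 and 0.359 to 0.51 in the others. Embryonic Myh3 was at 5.12 and 3.71 in those 2 tumors and at 1.99, 1.49 and 1.82 in WT tumor 4 and C3-/- tumors 3 and 4. Neonatal Myh8 (11.1, 2.55, 4.81, 7.93 and 1.64) and Myf6, the factor of mature fibers (14.8, 15.8, 8.79, 18.7 and 16.5 in WT tumors 1 and 4 and C3-/- tumors 1, 3 and 4), did not share that order. Nor did Myod1 (0.732, 0.49, 1.46, 1.09 and 1.02), the receptor subunits Chrnd (2.11, 0.457, 0.795, 1.19 and 0.984) and Chrna1 (12.9, 8.0, 6.89, 13.1 and 9.99), or Cdh15, a cadherin of satellite cells (5.04, 3.23, 2.12, 3.07 and 3.1). Chrng and Myh3 were thus picked from lists whose other genes differed, and nothing is read from their likeness to Myog. Counts of Chrng were 22, 0, 0 and 11 in WT and 56, 0, 4 and 14 in C3-/- tumors, so its ratios rest on few reads.

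Long genes were low in C3-/- tumor 1. There, against the mean of the other 4 tumors with muscle RNA, the log2 ratio to Acta1 had a median of -1.45 over the 12 members of 5000 bases or more and of -0.33 over the 10 members under 1600 bases. All 12 long members lay below 0, as did 8 of the 10 short ones. Ttn, the longest at 117334 bases, was at 93 per 1000 Acta1 counts in C3-/- tumor 1 and at 351, 626, 447 and 557 in WT tumors 1 and 4 and C3-/- tumors 3 and 4. Neb was at 48.8 against 180, 317, 186 and 237.

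The same lean was present outside muscle. Over 16566 other genes, those of 6334 bases or more differed from those of 2315 bases or fewer by -0.536 (log2, against the mean of all tumors) in C3-/- tumor 1 and by -0.506 in WT tumor 3, and by 0.079 to 0.288 in the other 6 tumors. Across 43 members Spearman's rho of length with the ratio in C3-/- tumor 1 was -0.71, a description over genes that are not independent. The ratios of long members such as Fbxo32 (6976 bases) and the heavy chains to Acta1 (1536 bases) in C3-/- tumor 1 carry this lean, whose part in them was not tested.

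**Figure D5:**
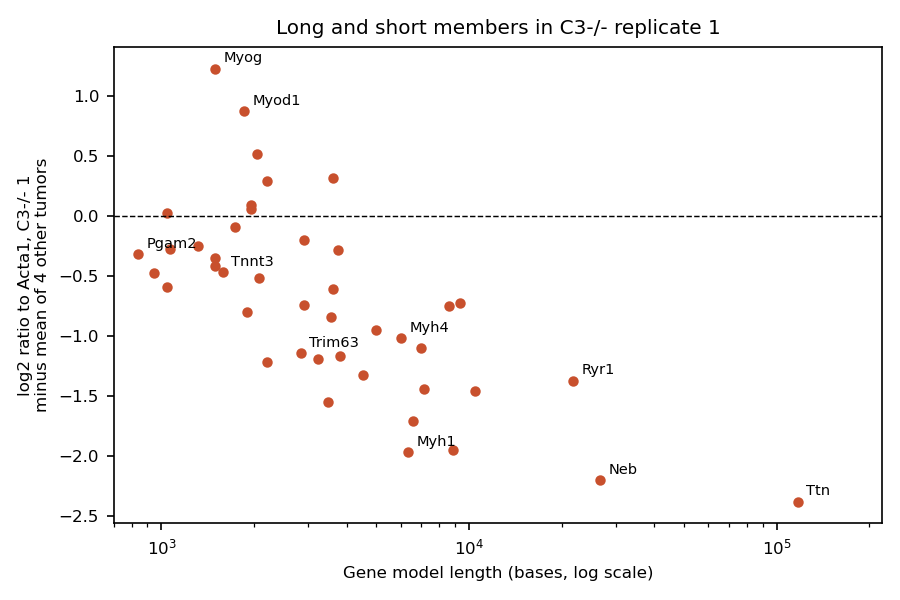
Log2 ratio to Acta1 in C3-/- tumor 1 minus the mean of WT tumors 1 and 4 and C3-/- tumors 3 and 4 (vertical axis) against the length of the gene model in bases (horizontal log axis), for 43 members. Ttn and Neb, the longest, lie lowest, and Myog lies highest.

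Other genes of muscle, in lists written beside the members, held the tumor order of the members to different extents, and none of their genes was called. Of 35 further sarcomere and calcium genes 34 were tested and 0 called, and 31 had their 3 lowest CPM values in WT tumors 2 and 3 and C3-/- tumor 2. The smallest p there was that of Tnnt2, the cardiac troponin T also made by other cells (log2 fold change -0.24, adjusted p = 0.999 by edgeR). Of 17 metabolic genes 0 were called and 11 had that order. Adssl1, which did not have it, had the smallest p (-0.41, adjusted p = 0.985 by edgeR). Of 10 neuromuscular junction genes 8 were tested, 0 were called and 5 had that order, with Dok7 at 0.49 (adjusted p = 0.971 by edgeR).

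Among 11 satellite cell and myogenic genes 8 were tested and 0 called, 5 with that order, and Heyl, a Notch target, had the smallest p (0.45, unadjusted p = 0.0332, adjusted p = 0.971 by edgeR). Of 13 further atrophy and proteolysis genes 12 were tested and 0 called. The metallothionein Mt2 had the smallest p of these (-0.70, unadjusted p = 0.0253, adjusted p = 0.965 by edgeR), and only 2 of the 13 had the tumor order of Acta1. The atrophy list is mostly of genes that many cell types use.

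The label of skeletal muscle was checked against cardiac and smooth muscle. Cardiac markers (7 genes) summed to 3.77 to 7.25 CPM per tumor, Myh6, the defining heavy chain of the heart, had 0 to 2 counts, and Actc1 had the smallest p (1.41, adjusted p = 0.973 by edgeR). Smooth muscle markers (9 genes) summed to 224 to 550 CPM, highest in WT tumor 3, where Acta1 was lowest, and Smtn had the smallest p (-0.30, adjusted p = 0.985 by edgeR). Neither sum had the tumor order of the skeletal genes, but 1 gene of each list did. Actc1 was counted 21, 1, 2 and 15 times in WT and 32, 7, 20 and 52 times in C3-/- tumors. Synpo2, a smooth muscle marker also found at the Z disc, was counted 188, 55, 54 and 422 times in WT and 157, 59, 178 and 505 times in C3-/- tumors.

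Markers of other tissues also differed between tumors. Adipocyte markers (7 genes) summed to 694 CPM in WT tumor 2 and 50.6 to 225 in the other 7, with Pck1 at -4.43 (adjusted p = 0.960 by edgeR). Hepatocyte markers summed to 13.4 to 89.4 CPM, highest in WT tumor 4, with Ahsg at -3.26 (adjusted p = 0.933 by edgeR), and acinar Prss2 was at 0.94 (adjusted p = 0.999 by edgeR). Mesothelial markers summed to 363 to 569 CPM, with Upk3b at -1.43 (adjusted p = 0.933 by edgeR), and Schwann cell markers to 66.5 to 88.7 CPM, with Prx at -0.33 (adjusted p = 0.971 by edgeR). None of these sums had the tumor order of the skeletal muscle genes, and their part in the results was not tested.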

How the data were processed

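Poly-A RNA of 4 WT and 4 C3-/- KPC tumors was sequenced. Raw counts per gene (mm39) were deposited by the authors, whose methods name STAR and HTSeq, while the submitters' processing notes name HISAT2 2.0.5 and DESeq2 1.20.0. The strand setting is not given in the sources used here. The FPKM values deposited by the authors are size-factor-normalized counts per length, and only levels are quoted from them. The authors' normalized counts, fold changes and p-values were not used.

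Counts were tested with edgeR 4.0.16 in R 4.3.3 (filterByExpr with a minimum count of 10, TMM, quasi-likelihood F-test, Benjamini-Hochberg over all 16610 genes), and with DESeq2 1.42.0 as an alternative. The SE of a fold change was derived from the F statistic. Exact permutation tests used log2(CPM + 0.1), and likeness to Acta1 a prior count of 2 on log2 CPM. Binomial intervals are exact (95%). Ratios needed a denominator of at least 100 counts. The motif search used GENCODE vM39 canonical starts and covered all 46 members. The labels call the tumors biological replicates, and the p-values measure the spread between these tumors.

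All 46 members are accounted for. Given in full were Acta1, Ckm, the fast and slow pairs, Des, the ligases, the myogenic factors, the 3 members with the smallest p, and the 5 nearest to and farthest from Acta1, plus the 10 nearest other genes, of which 1 is not reported here, and the gene with the smallest p in each list. The members, lists and rules were chosen with earlier results of these data known. The alternatives were DESeq2 size factors, DESeq2, no filter, at least 10 counts in every tumor, a replicate block, each tumor left out, plain counts for slow shares, the members without Des and Eno3, and a prior count of 0.5.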

Additional observations from a re-analysis of the deposited data

Results flagged for a closer look

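In 11 of 94 groups of 4 tumors 1 tumor stood apart from the other 3 by Dixon's 95% value, where chance gives 4.7, and it was C3-/- tumor 2 each time. Its log2 CPM was -0.98 for Acta1, -0.57 for Tnnt3, -1.34 for Mybpc2 and for Actn3, -2.14 for Myl1, -2.55 for Ckm and -3.12, the value of no count, for Myh4, Sln, Trdn, Pvalb and Trim63. The members move together over tumors, so these are not 11 separate events. No WT tumor was singled out, since 2 of the 4 were low.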

How the results depend on the processing

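The count of members called was 0 under all 13 alternatives. Their median log2 fold change was 0.33 and ranged from -0.35 to 1.54 when a tumor was left out. Leaving out a tumor moved the log2 fold change of Acta1 between 0.13 and 1.65, of Ampd1 between 0.47 and 1.96, of Myl3 between 1.23 and 3.67, of Ckm between -0.06 and 1.76, of Des between -0.17 and 1.26, of Fbxo32 between -0.89 and 0.58, of Myog between -0.07 and 2.27 and of Trim63 between -1.55 and 0.82. Tumors with the same replicate number did not all deviate together (residual correlations -0.03, 0.491, -0.356 and 0.594). The numbers were therefore not used as pairs in the main test, but so few correlations cannot exclude pairing. With the replicate block the median was 0.93, 0 members were called, Acta1 stood at 1.60 and Trim63 at 0.30. Slow shares were lower per length than as plain counts, and 26 of 28 moved by more than their interval (Tnni1 in WT tumor 2 was at 8.34% per length and 17.9% of counts, and Myh7 in C3-/- tumor 4 at 4.13% and 5.69%). With a prior count of 0.5, 7 of the 10 and 23 of the 50 genes nearest to Acta1 were members. Counts of Pax7, Myod1 and Myl3 reached 9, 33 and 48 at most, which limits their precision.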
